A study of Homo sapiens with 4 samples.

Results

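Of 20079 protein-coding promoters of BE(2)C neuroblastoma cells, 927 changed between an empty and a filled start-site window together with MYCN knockdown. They were selected on the nucleosome positions measured in all 4 libraries. The window spanned 200 bp before and 50 bp after the transcription start site (TSS) of the canonical transcript, or the most upstream TSS where none was marked (19881 of 20163 annotated genes had one), and it counted as filled in a library when a called nucleosome lay at least 80% inside it. A window without such a nucleosome is called a nucleosome-free region (NFR). At 444 promoters (2.21%) the window was empty in both ctrl libraries and filled in both N-myc kd libraries, which is termed NFR loss. At 483 promoters (2.41%) it was filled in both ctrl libraries and empty in both N-myc kd libraries, which is termed NFR formation. Because these states chose the members, the counts are a description and carry no test. Grouping the libraries across the treatment, with ctrl 1 and N-myc kd 2 on one side and ctrl 2 and N-myc kd 1 on the other, gave sets of similar size by the same rule. In that crossed grouping 399 promoters (1.99%) were empty in ctrl 1 and N-myc kd 2 and filled in the other two libraries, and 492 (2.45%) showed the reverse.

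BE(2)C is an established human neuroblastoma line in which MYCN is amplified, and every library came from this line (BE2C in the labels). The ctrl libraries carry the genotype wild type and, by the methods, a control siRNA, and the N-myc kd libraries carry the genotype N-myc kd from siRNA against MYCN, which encodes the transcription factor N-myc; the labels give 80 nM siRNA with Lipofectamine for 6 h and harvest on the next day, and the methods give a lower final amount of siRNA. Each group held replicates 1 and 2 of micrococcal nuclease sequencing (MNase-seq), an assay that reads out DNA protected by nucleosomes, and the methods call the replicates biological without saying how they were separated. The 4 libraries used here hold no transcripts, so neither the knockdown nor the expression of the genes below was checked in them.

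The lists held 10527010 to 12178724 called nucleosomes of 147 bp, with 147370973 to 242544884 reads in them. Replicate 2 was deeper than replicate 1 in both groups, with a median of 18 against 12 reads per nucleosome. An NFR was present at 11724 promoters in ctrl 1, 10566 in ctrl 2, 12099 in N-myc kd 1 and 10465 in N-myc kd 2, so the number of empty windows moved with the replicate number. Accordingly 907 promoters were empty in both replicates 1 and filled in both replicates 2, and 360 showed the opposite. In all 4 libraries 6484 windows were empty (32.29%) and 4004 were filled (19.94%).

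The promoters of active genes commonly hold a stretch of accessible DNA just upstream of the TSS, bordered by the nucleosomes called -1 and +1. That gap is kept by transcription factors, chromatin remodelers and the sequence itself, and it is where the transcription machinery assembles. Silent tissue-specific genes more often carry a nucleosome across the start site, and histone chaperones such as FACT take nucleosomes apart and put them back during transcription.

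To show what a switching nucleosome covers, 4 promoters are printed, 2 for each direction, which had the highest lower read counts among the members whose nucleosome had no close counterpart in the other group, leaving out multicopy families, genes with clone names and 1 chromosome not shown here. Each sequence gives the 200 bases upstream of the TSS in the direction of the gene, from GRCh37 (hg19), and capitals mark the bases under the switching nucleosome in the deeper filled library. All 4 genes lie on the minus strand, at chr2:220034752-220034951, chr16:776444-776643, chr7:99573655-99573854 and chr16:75241060-75241259 in the order printed. SLC23A3 is a relative of the ascorbate transporters and CCDC78 takes part in centriole amplification in ciliated cells, and both showed NFR loss. AZGP1 encodes a secreted zinc-binding glycoprotein and CTRB2 a pancreatic chymotrypsinogen, and both showed NFR formation.
SLC23A3: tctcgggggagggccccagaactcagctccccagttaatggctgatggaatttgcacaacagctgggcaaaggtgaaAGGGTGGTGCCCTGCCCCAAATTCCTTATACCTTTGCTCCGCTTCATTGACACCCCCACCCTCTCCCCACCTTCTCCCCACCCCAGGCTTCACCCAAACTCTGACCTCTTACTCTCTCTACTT
CCDC78: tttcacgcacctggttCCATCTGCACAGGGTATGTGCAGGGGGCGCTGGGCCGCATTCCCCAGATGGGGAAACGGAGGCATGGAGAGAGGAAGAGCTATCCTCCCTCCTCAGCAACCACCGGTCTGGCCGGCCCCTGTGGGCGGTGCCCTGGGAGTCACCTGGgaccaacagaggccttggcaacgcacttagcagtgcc
AZGP1: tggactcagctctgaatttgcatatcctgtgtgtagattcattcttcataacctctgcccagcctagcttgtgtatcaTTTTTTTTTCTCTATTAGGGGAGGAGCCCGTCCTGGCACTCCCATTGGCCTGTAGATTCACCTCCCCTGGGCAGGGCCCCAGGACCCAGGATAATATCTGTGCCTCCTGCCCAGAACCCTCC
CTRB2: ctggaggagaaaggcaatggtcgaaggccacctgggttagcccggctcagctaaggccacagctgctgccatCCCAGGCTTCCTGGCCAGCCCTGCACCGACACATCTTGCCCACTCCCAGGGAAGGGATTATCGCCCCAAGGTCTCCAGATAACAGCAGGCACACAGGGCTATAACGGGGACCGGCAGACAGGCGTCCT
The footprint covered 123 of the 200 bases in SLC23A3, 147 in CCDC78, 122 in AZGP1 and 128 in CTRB2, and in 3 of the 4 it ran on past the TSS.

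At SLC23A3 the window held a nucleosome of 23 reads centred 90 bp upstream of the TSS in N-myc kd 1 and one of 27 reads at -50 bp in N-myc kd 2. The nearest nucleosomes to that site were at -197 bp in ctrl 1 (20 reads) and at 91 bp in ctrl 2 (36 reads). The ctrl libraries therefore held nucleosomes of similar read count on opposite sides of the window. At CCDC78 the nucleosome lay at -9 bp in N-myc kd 1 (17 reads) and at -111 bp in N-myc kd 2 (19 reads), against -187 bp (19 reads) and -181 bp (24 reads) in the ctrl libraries. Both N-myc kd windows were filled, but by nucleosomes at different places. The distance to ctrl was taken from their mean at -60 bp, and the nucleosome of N-myc kd 2 alone was closer to those of ctrl. At AZGP1 the nucleosome lay at -18 bp in ctrl 1 (30 reads) and at -49 bp in ctrl 2 (22 reads), and in the N-myc kd libraries the nearest lay downstream of the TSS at 116 bp (24 reads) and 128 bp (34 reads). At CTRB2 it lay at -60 bp (24 reads) and -55 bp (22 reads) in the ctrl libraries, and the nearest N-myc kd nucleosomes were at 60 bp (16 reads) and -190 bp (23 reads). The ctrl positions of CTRB2 were 5 bp apart whereas those of N-myc kd fell on either side.

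The rule amounts to a called nucleosome centre (dyad) between -156 and 6 bp from the TSS, since 118 of 147 bases must be inside. Around the TSS of the members, 9.6% and 8.8% of the reads within 1 kb had their dyad between -160 bp and the TSS in the N-myc kd libraries at NFR loss promoters, against 0.5% and 0.7% in the ctrl libraries. At NFR formation promoters the shares were 9.9% and 8.9% in ctrl and 0.5% and 0.8% in N-myc kd. That contrast is what selected the promoters. The edges of the window are tied to the same choice, because called nucleosomes of a library do not overlap and an empty window leaves room at its borders. Between -240 and -160 bp NFR loss promoters held 7.2% of reads in each ctrl library and 2.8% and 2.9% in N-myc kd, and NFR formation promoters 7.0% and 7.1% in N-myc kd against 2.7% and 2.3% in ctrl. Nothing is read from these values beyond the selection.

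**Figure D1:**
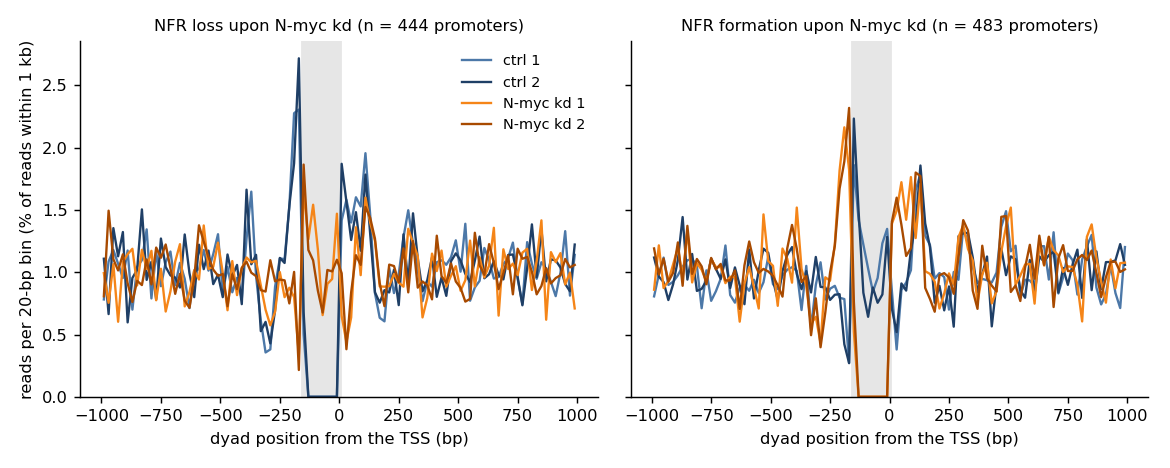
Reads of called nucleosomes by dyad position around the TSS, in 20-bp bins as % of the reads within 1 kb, for each library at the 444 NFR loss and 483 NFR formation promoters; the shaded band marks the dyad positions that count as filled. The filled libraries hold 8.8% to 9.9% of their reads between -160 bp and the TSS and the empty ones 0.5% to 0.8%, as the selection sets; the peaks of the empty libraries at both edges of the band are tied to it too.

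The switching nucleosome was seldom well covered. Its read count had a median of 10 in the shallower and 15 in the deeper filled library for both directions, and the median of the mean was 12.25 reads for NFR loss and 12.5 for NFR formation. Nucleosomes with fewer than 6 reads had been left out of the lists, so a count near this minimum can pass in one library and miss it in another. The lower of both filled libraries held fewer than 10 reads at 237 NFR loss promoters (53.38%) and at 238 NFR formation promoters (49.28%). Promoters filled in all 4 libraries had such low counts less often, with 22.25% by the N-myc kd and 20.78% by the ctrl libraries. The crossed sets resembled the members, at 48.37% and 49.39%. A lower count of at least 20 reads was seen at 27 NFR loss and 49 NFR formation promoters, beside 21 and 56 in the crossed sets. The highest was 41 for loss and 38 for formation.

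**Figure D2:**
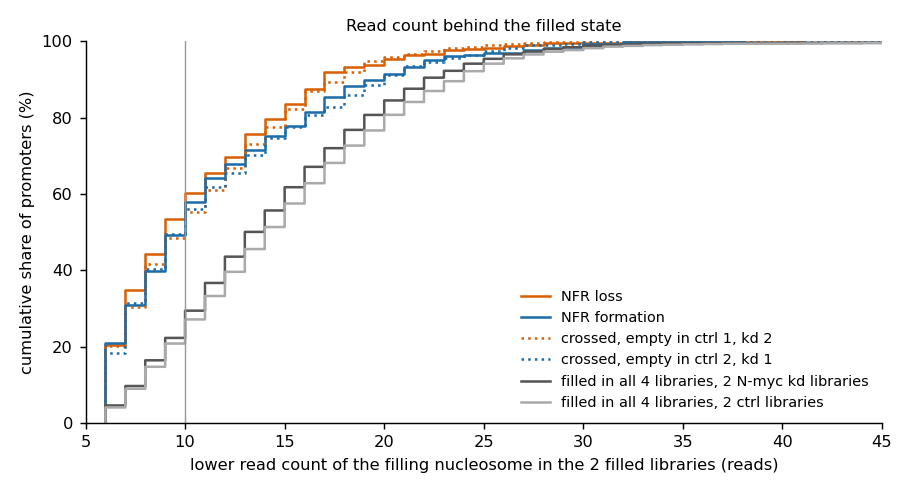
Cumulative share of promoters (%) by the lower read count of the filling nucleosome in the 2 filled libraries, for NFR loss and formation (solid colours), the crossed grouping (dotted) and promoters filled in all 4 libraries (grey); the vertical line marks 10 reads. Members and crossed sets lie together, with 48.37% to 53.38% under 10 reads, and the promoters filled in all 4 libraries lie to the right, with 20.78% to 22.25%. The rule favours that contrast, since those promoters must pass the read minimum in every library.

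Within the window the switching nucleosome lay at a median of 83 bp upstream of the TSS for NFR loss (quartiles -116.75 and -49.38 bp) and 82 bp upstream for NFR formation (quartiles -119.75 and -44.5 bp). Both are close to the middle of the permitted range, and the crossed sets had -80 and -82.5 bp. The dyads of both filled libraries were a median of 27 bp apart for loss and 22 bp for formation, beside 26 and 22 bp in the crossed sets and 16 to 17 bp within a group at promoters filled in all 4 libraries. Fuzziness, the standard deviation of read midpoints about the dyad, had medians of 35.4 and 36.5 bp for loss and 35.5 and 35.9 bp for formation. The nucleosome lay wholly inside the window in both filled libraries at 161 NFR loss (36.26%) and 173 NFR formation promoters (35.82%).

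Most empty windows had a nucleosome at their edge. Distance ran from the mean dyad of both filled libraries to the nearest nucleosome in each empty library, averaged over these. It had a median of 107.25 bp for NFR loss (quartiles 72.38 and 144.62 bp) and 110 bp for NFR formation (quartiles 73.5 and 143 bp). In the crossed sets the medians were 107.5 and 114.25 bp. At promoters filled in all 4 libraries the ctrl nucleosome was a median of 19.5 bp from the N-myc kd position. The rule favours that last contrast, since such promoters hold a dyad of every library in the window and members hold none of the empty group. Within a library the called nucleosomes did not overlap one another. A nucleosome lay at least 50% inside the window in both empty libraries at 198 NFR loss (44.59%) and 201 NFR formation promoters (41.61%), and in at least 1 of them at 330 (74.32%) and 356 (73.71%). Windows that no nucleosome touched in either empty library numbered 15 (3.38%) and 8 (1.66%). The nearest nucleosome was upstream in both empty libraries at 206 NFR loss promoters, downstream in both at 135 and on opposite sides at 103, and for NFR formation the counts were 202, 171 and 110.

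Members were then sorted by this distance. A member was near when the nearest nucleosome was under 74 bp away in both empty libraries, far when it was so distant in both that the footprints overlapped by at most 30 bp, and mixed otherwise. NFR loss split into 84 near, 239 mixed and 121 far promoters, and NFR formation into 98, 267 and 118. The far share was 27.25% and 24.43%, beside 24.81% and 28.05% in the crossed sets. Of the promoters filled in all 4 libraries 0 were far and 89.74% near, but there the rule itself keeps the dyads of both groups inside the window.

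**Figure D3:**
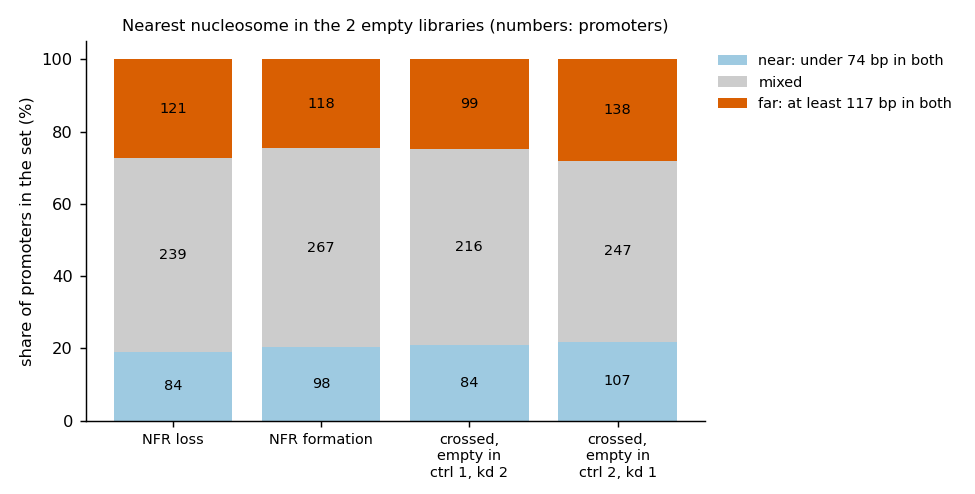
Share of promoters (%) in each set by distance from the mean dyad of both filled libraries to the nearest nucleosome in both empty libraries, with the number of promoters written in each segment. The far class takes 27.25% of NFR loss, 24.43% of NFR formation and 24.81% and 28.05% of the crossed sets.

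The edge of the rule passed through the members. At 314 NFR loss (70.72%) and 350 NFR formation promoters (72.46%) at least 1 of the 4 libraries had its deciding dyad within 20 bp of the limit, against 75.44% and 68.5% of the crossed sets. Asking for 1 base fewer inside would bring in 16 promoters and drop 17 for NFR loss, and bring in 27 and drop 26 for NFR formation. Among the promoters just outside were those of CHI3L2, a chitinase-like protein, for loss, and HBA1, an alpha globin gene, and NCF4, a subunit of the phagocyte oxidase, for formation. Asking for 1 base more would drop 23 and 19 members. One of them was TFF1, a gastric trefoil peptide gene, whose dyads at -158 and -179 bp in ctrl and -156 and -41 bp in N-myc kd put ctrl 1 and N-myc kd 1 on different sides of the limit by 2 bp. Another was PDE6G, a rod phosphodiesterase subunit, filled in ctrl at -143 and -156 bp and empty in N-myc kd at -157 and -162 bp. Its nucleosomes had 20, 36, 25 and 34 reads in ctrl 1, ctrl 2, N-myc kd 1 and N-myc kd 2, so a well covered nucleosome was present in every library.

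Among promoters of named genes, 8 NFR loss promoters had the highest lower read counts. MOGAT2, an intestinal acyltransferase of fat absorption, had 28 reads in each N-myc kd library, at -27 and -111 bp, against 22 reads at 25 bp and 39 reads at 14 bp in ctrl 1 and ctrl 2. ORM2, which encodes a plasma acute-phase protein of the liver, had 27 reads at -118 bp and 38 reads at -114 bp in N-myc kd and 18 reads at -175 bp and 47 reads at -167 bp in ctrl. The ORM2 nucleosome was thus present in every library and stood 55 bp farther upstream in ctrl on average. NUP210L, a germ cell relative of a nucleoporin, had dyads at -24 and -3 bp in N-myc kd and at 12 and 21 bp in ctrl, a mean distance of 30 bp. CCL1, a chemokine gene, differed by 21.5 bp, with dyads at 16 and 19 bp in ctrl and -11 and 3 bp in N-myc kd and 19 to 29 reads in the 4 libraries. The epithelial calcium-binding protein gene S100A14 had dyads at -192 and -179 bp in ctrl and -81 and -52 bp in N-myc kd, a mean distance of 119 bp. SLC5A4, of the sodium and glucose cotransporter family, ASB4, a substrate adaptor of ubiquitin ligases, and SPDYE14, of a duplicated family, complete these 8. None of the 8 was far, but the last place was a tie. SLC23A3, which was far, had the same lower count of 23 reads as CCL1 and came after it by gene name. Genes with clone names were left out here, and the loss promoter with 41 reads was 1 of them.

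Among the far NFR loss promoters the next best covered after SLC23A3 were OR13C3, CCDC78, LAIR1, ODF1, OR4F4, GSC and KRT31. LAIR1, an inhibitory receptor of leukocytes, had dyads at -35 and -26 bp in N-myc kd (17 and 19 reads) and at 107 and 102 bp in ctrl (24 and 27 reads). Each pair of LAIR1 libraries placed its nucleosome within 9 bp. GSC, the homeobox gene goosecoid, had ctrl dyads at 31 and 24 bp (19 reads each) and N-myc kd dyads at -79 bp (21 reads) and -152 bp (15 reads). KRT31, a hair keratin gene, had ctrl dyads at -209 and -210 bp with 31 and 28 reads, and N-myc kd dyads at -140 and -27 bp with 15 and 18 reads. At GSC and KRT31 the ctrl libraries were the more alike, and the N-myc kd nucleosomes were 73 and 113 bp apart. ODF1 encodes a sperm tail protein. Its N-myc kd dyads at -142 and -11 bp were 131 bp apart, and its ctrl dyads were at -218 and 51 bp. The mean distance of 134.5 bp to ctrl was taken from the mean N-myc kd position of -76.5 bp, so each N-myc kd nucleosome had a closer one in ctrl.

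NFR formation was led by OR4M1, an olfactory receptor gene, with 38 and 46 reads at -41 and -31 bp in ctrl and 42 and 61 reads at 79 and 22 bp in N-myc kd. ADIPOQ, which encodes the adipocyte hormone adiponectin, had 30 reads at 0 bp and 44 reads at -122 bp in ctrl and 29 reads at -167 bp and 34 reads at -184 bp in N-myc kd. Here the ctrl libraries filled the window with different nucleosomes, one on the TSS itself. EDDM3A, an epididymal protein gene, was near, with ctrl dyads at -18 and -29 bp and N-myc kd dyads at 9 and 42 bp. CIB4, of a family of calcium-binding proteins, and ASB10 were near as well, with N-myc kd nucleosomes 29 to 32 bp and 11 to 25 bp downstream of the TSS in place of ctrl nucleosomes just upstream of it. TBC1D3F and TBC1D3K, copies in a primate segmental duplication, shared one nucleosome of 30 and 50 reads in ctrl, because their windows overlap, and reads in such copies can be placed in more than 1 of them. DNAJC5G, of the DnaJ chaperone family, completes the 8.

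The far NFR formation promoters after AZGP1 and CTRB2 were CCND2, APOM, LST1, SEC14L3, ACTRT2 and CAVIN3. CCND2 encodes cyclin D2, which drives entry into the cell cycle. Its window held a nucleosome at -52 bp (19 reads) and -63 bp (23 reads) in ctrl, and the N-myc kd nucleosomes lay at 83 bp (22 reads) and 79 bp (24 reads). The CCND2 positions were within 11 bp in each group and the groups were 138.5 bp apart on average. LST1, a leukocyte gene of the MHC region, had ctrl dyads at -43 and -63 bp (17 and 29 reads) and N-myc kd dyads at 70 and 78 bp (14 and 21 reads). APOM, which encodes an apolipoprotein, had dyads at -127 and -144 bp in ctrl and -264 and -286 bp in N-myc kd. ACTRT2, an actin-related gene of the testis, had dyads at -81 and -95 bp in ctrl (15 and 22 reads) and -256 and -246 bp in N-myc kd (15 and 10 reads). In these 4 promoters both libraries of a group placed the nucleosome on the same side. CAVIN3, a caveola component, shared that order, with ctrl dyads at -130 and -117 bp and N-myc kd dyads at 106 and 12 bp. Its N-myc kd positions were less alike than those of ctrl.

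Which promoters met the rule depended on the setting. With a nucleosome at least 50% inside, 283 and 331 promoters met the rule in the 2 directions, beside 242 and 346 in the crossed sets. Of the members, 114 NFR loss (25.68%) and 127 NFR formation promoters (26.29%) were among them. At 100% inside 161 (36.26%) and 173 (35.82%) were kept, and with at least 10 reads 207 (46.62%) and 245 (50.72%). Thinning the lists to equal depth kept 348 (78.38%) and 373 (77.23%), and moving to the most upstream TSS of each gene kept 271 (61.04%) and 300 (62.11%). At that TSS 3 NFR loss promoters and 5 NFR formation promoters passed to the opposite direction.

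The rule was met at 50%, at 100%, at 10 reads and at equal depth together by 11 NFR loss (2.48%) and 17 NFR formation promoters (3.52%), beside 8 (2.01%) and 15 (3.05%) in the crossed sets. These 28 were named after their values were seen. NFR loss kept SNCG, PTPRH, SCYGR5, CSHL1, OR2F2, PRAMEF15, GBX2, ADAMTS3, CNTN3, MAPK15 and OR51L1. SNCG, which encodes gamma-synuclein of peripheral neurons, had N-myc kd dyads at -117 and -119 bp (18 and 17 reads) and ctrl dyads at -225 and -264 bp (14 and 30 reads). GBX2, a homeobox gene of the hindbrain boundary, had ctrl dyads at -256 and -250 bp (15 and 32 reads) and N-myc kd dyads at -109 and -60 bp (11 and 12 reads). ADAMTS3, a procollagen protease gene, had both N-myc kd dyads at -73 bp with 10 reads each, the lowest count in the set, and ctrl dyads at 80 and 63 bp. In this set 9 of 11 promoters were far, 0 were near, and the dyads of both filled libraries were a median of 18 bp apart. The settings build this in. The 100% setting narrows the span of filled dyads and the 50% setting widens the span kept empty, so no near member can remain.

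NFR formation kept 15 promoters with gene names, CCND2, ITGA11, LST1, ACTRT2, OXCT2, PKLR, ELL3, RENBP, CXorf65, LMX1B, CREBBP, DBF4, NKX1-2, SLC25A40 and TPPP3, and 2 known by Ensembl identifiers. OXCT2, a testis enzyme of ketone body use, had ctrl dyads at -92 and -94 bp (14 and 21 reads) and N-myc kd dyads at -256 and -252 bp (11 and 14 reads). CREBBP, which encodes a histone acetyltransferase, had ctrl dyads at -107 bp (12 reads) and -123 bp (10 reads), and its N-myc kd nucleosomes lay on opposite sides at -282 bp (19 reads) and 91 bp (10 reads). DBF4, the activator of the replication kinase CDC7, and SLC25A40, a mitochondrial carrier gene, face away from each other and share the window at chr7:87505625-87505858. Their ctrl nucleosome was the same one, of 12 and 10 reads, and so counts once. CCND2 and 1 of the Ensembl entries have the same window too, so the 17 stand for 15 distinct nucleosomes. The lower read count of the 17 ranged from 10 to 19 with a median of 12, so the promoters that held under all 4 settings were not the best covered ones.

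**Figure D4:**
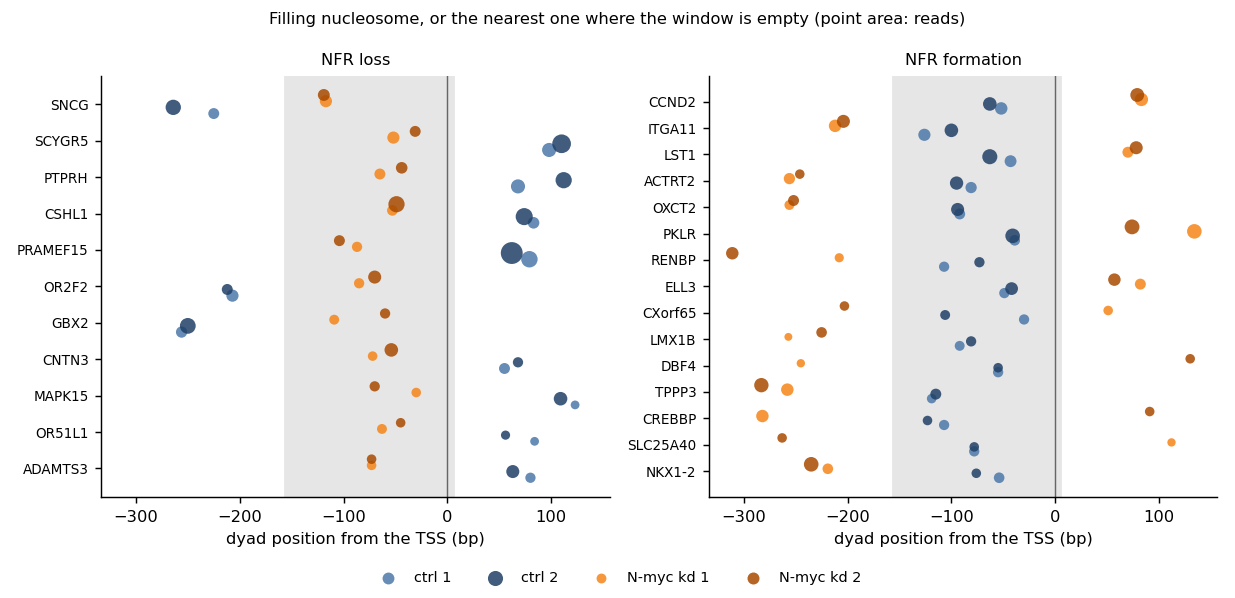
Dyad position from the TSS (bp) of the filling nucleosome, or of the nearest one where the window was empty, in each library at the 11 NFR loss and 15 named NFR formation promoters that met the rule under 4 further settings; point area is proportional to an offset plus the reads and the band marks filled positions. Nucleosomes of the empty group stand on one side at SNCG, GBX2, CCND2 and LST1 and on both sides at CREBBP, DBF4 and CXorf65.

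The genes behind the members were of mixed kind. Of the 927 promoters, 180 belonged to 1 of the 30 families searched by symbol, 102 (11%) were in multicopy families, beside 8.48% of all promoters, and 36 carried only a clone or Ensembl name. Olfactory receptors, the odorant receptors of the nasal epithelium, made up the largest group, with 19 NFR loss and 15 NFR formation promoters of 415. Together that is 8.19%, beside 4.62% of all promoters, and the crossed grouping held 20 (4.82%). Of these 415 promoters 97.1% had few CpG dinucleotides, and such promoters were more often members, as given below. Cytochromes P450, which oxidise steroids and drugs, had 5 and 3 of 57 (14.04%), beside 3 in the crossed sets. The 5 lost NFRs were at CYP4F12, CYP2F1, CYP3A5, CYP4Z1 and CYP26A1, and the 3 formed ones at CYP21A2, CYP4A22 and CYP2J2. Keratins had 3 and 2 of 55 (9.09%), with 1 in the crossed sets. Protocadherins, neuronal adhesion proteins of the cadherin family, had 3 and 3 of 65 (9.23%), with 2 in the crossed sets. Type I interferons, antiviral cytokines with genes on chromosome 9, had 3 NFR loss promoters of 17 (IFNA10, IFNA5 and IFNK) and 1 NFR formation promoter (IFNW1). The crossed sets held 1 of the 17, and in so small a family each promoter moves the share strongly.

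Some families held more promoters of the crossed grouping than members. Keratin-associated proteins of the hair shaft had 4 and 3 members of 94, and 15 promoters in the crossed sets (15.96%). Chemokines had 2 of 45 and 7 in the crossed sets (15.56%). In others the order was the reverse. C2H2 zinc finger genes, the largest family of transcription factors, had 12 and 12 of 566 (4.24%, under the share of all promoters), with 15 in the crossed sets. Solute carriers, the membrane transporters, had 9 and 13 of 374 (5.88%), with 15. Cancer-testis antigens, genes of the germ line that tumours can express, had 4 and 5 of 133 (6.77%), with 4. Cytosolic ribosomal protein genes and the 40 housekeeping genes had no member, and the crossed sets held 1 promoter of each. None of these shares was tested, since the members had been selected on the measurements.

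**Figure D5:**
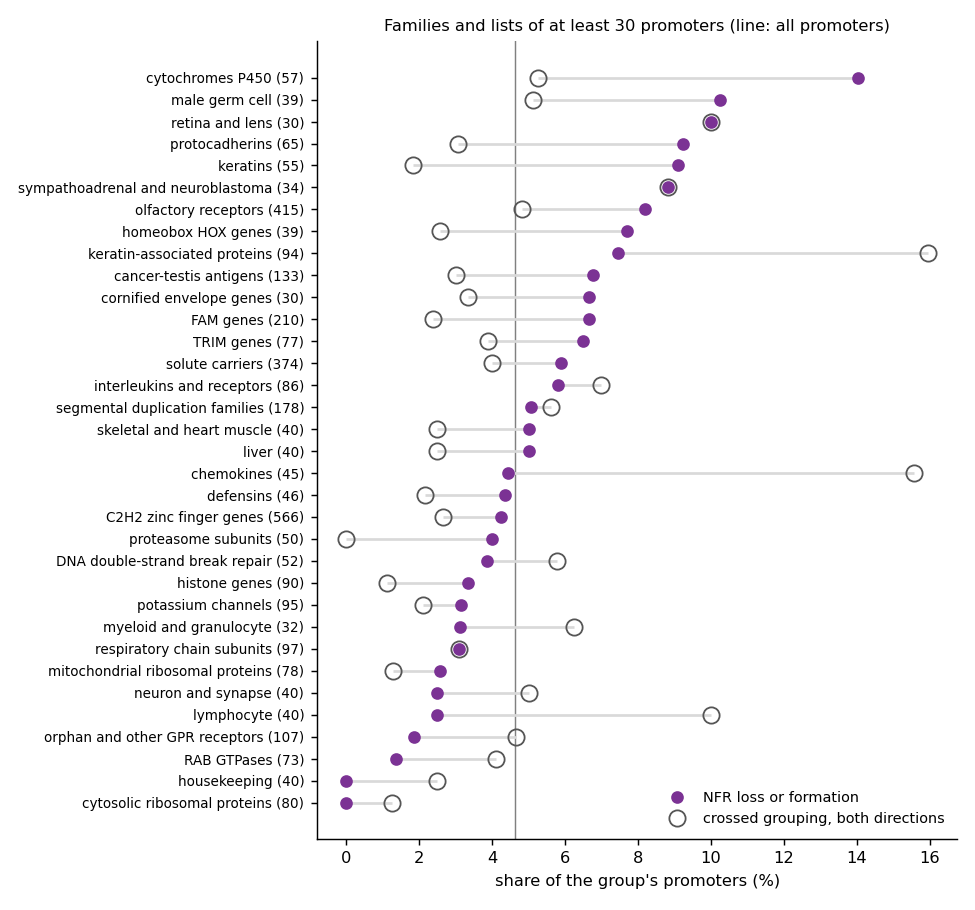
Share of promoters (%) that were members (filled points) or in the crossed grouping, both directions together (open points), for families and lists of at least 30 promoters, with their number in parentheses; the line marks 4.62%, the share over all promoters. Cytochromes P450 stand highest among members at 14.04%, and keratin-associated proteins and chemokines stand highest in the crossed grouping at 15.96% and 15.56%.

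The tissue lists were short and gave between 1 and 4 members each, and their shares are read beside the 4.62% of all promoters. Male germ cell genes had 3 NFR loss promoters of 39 (NUP210L, ODF1 and LDHC) and 1 NFR formation promoter (DDX4, a germ cell RNA helicase), with 2 in the crossed sets. Liver genes had 2 of 40 (5.0%), both NFR formation, at TAT, a tyrosine aminotransferase gene, and FGA, a fibrinogen chain gene, with 1 in the crossed sets. Retina and lens genes had 3 of 30, ABCA4 for loss and BFSP2 and PDE6G for formation, and the crossed sets held 3 as well. Intestine and stomach genes had TFF1 for loss and ANPEP and CBLIF for formation among 29, with 2 in the crossed sets. Pancreas genes had NKX6-1 and SYCN of 25, both for loss, with 1 crossed. Skeletal and heart muscle genes had MYF5 for loss and TNNI2 for formation among 40, with 1 crossed. Lymphocyte genes had 1 of 40 (2.5%), PDCD1 for loss, against 4 in the crossed sets (10.0%). Myeloid genes had FCER1A of 32 for loss, with 2 crossed, and epidermal genes SERPINB3 of 25 for formation, with 0 crossed.

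Genes of the neuroblastoma lineage gave 3 members of 34 (8.82%), beside 4.62% of all promoters and 3 of the list in the crossed sets. TBX2, a transcription factor gene, showed NFR loss, and NTRK2, a neurotrophin receptor gene, and SLC6A2, the noradrenaline transporter gene, showed NFR formation. TBX2 had N-myc kd dyads at -59 and -38 bp with 6 and 11 reads and ctrl dyads at 57 and 58 bp with 12 and 15 reads. NTRK2 had ctrl dyads at 6 and -153 bp, both at the edges of the permitted range, and N-myc kd dyads at 8 and 11 bp. The ctrl 1 and N-myc kd 1 nucleosomes of NTRK2 were thus 2 bp apart and fell on different sides of the limit. SLC6A2 had 10 and 8 reads at -85 and -137 bp in ctrl, and N-myc kd nucleosomes of 11 and 19 reads at 91 and -314 bp. Of 40 neuronal genes, INA, a neurofilament gene, showed NFR formation, with 2 in the crossed sets.

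DNA double-strand break repair genes were added as a list after the others had been counted, because the study addressed repair. They had no NFR loss promoter among 52 and 2 NFR formation promoters (3.85%), with 3 in the crossed sets. Over all promoters the shares were 2.21% for loss and 2.41% for formation, so a list this short gives no reading in either direction. The study worked from pooled replicates, so its promoter sets are not the ones used here. EXO1, an end-resection nuclease, had ctrl dyads at -153 and -148 bp (23 and 18 reads) and N-myc kd dyads at -167 and -168 bp (11 and 35 reads), so the groups were 17 bp apart across the limit. SLX4, a scaffold of structure-specific nucleases, had ctrl dyads at -104 and -100 bp with 7 and 8 reads and N-myc kd dyads at -291 and -272 bp with 14 and 15 reads. Of the 52 windows 55.8% were empty in all 4 libraries and 3.8% filled in all.

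Members more often had few CpG dinucleotides than promoters at large. The window was CpG-poor, with an observed over expected CpG ratio under 0.5, at 39.2% of NFR loss and 40.6% of NFR formation promoters, beside 28.1% of all promoters and 43.6% and 40.0% of the crossed sets. Promoters filled in all 4 libraries were CpG-poor in 45.9% and those empty in all 4 in 6.6%. Of the CpG-poor promoters 3.09% showed NFR loss and 3.48% NFR formation, and of the CpG-rich promoters 1.87% and 1.99%. The crossed grouping had 3.09% and 3.50% of the CpG-poor and 1.56% and 2.04% of the CpG-rich promoters. Among the families above, 97.1% of olfactory receptors, 90.9% of keratins, 68.4% of cytochromes P450 and 32.3% of protocadherins were CpG-poor. Their shares are therefore also to be read beside those of CpG-poor promoters. The far members were richer in GC, with a median of 67.7% for loss and 68.9% for formation against 61.6% and 60.6% for the near ones and 64.5% for all promoters. GC was not split by distance in the crossed sets, so this difference has no such value beside it.

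Short motifs were searched in the window on both strands. The E-box that MYC proteins and their relatives bind, CACGTG, was present at 32 NFR loss (7.21%) and 32 NFR formation promoters (6.63%), beside 7.84% of all promoters and 4.26% and 8.13% of the crossed sets. The TATA box letters TATAAA were present in 13.06% and 9.73%, beside 8.26% of all promoters and 12.78% and 11.99% of the crossed sets. The letters CCAAT were present in 25% and 27.54%, beside 32.06% of all promoters and 32.08% and 28.66% of the crossed sets. For the GC box GGGCGG the shares were 53.15% and 52.8%, beside 58.61% of all and 46.37% and 52.64% of the crossed sets. Runs of 8 or more A or T bases of one kind were found in 4.28% and 4.55%, beside 3.95% of all and 5.01% and 5.28% of the crossed sets. A match of letters is a description of the window and not a bound site.

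At 13 pairs of members the windows overlapped, either of genes that face away from each other or of a gene and an entry with only an Ensembl identifier or a duplicated copy. POMT2, a mannosyltransferase gene, and GSTZ1, a glutathione transferase gene, shared their NFR loss on chromosome 14, through one nucleosome of 9 and 6 reads in N-myc kd. CBLN3, a synaptic cerebellin gene, and KHNYN went in opposite directions through the same nucleosomes. These had 27 and 17 reads in ctrl and 18 and 16 reads in N-myc kd, a mean of 43.5 bp apart, and the windows are offset at chr14:24898960-24899074, so a position inside one lay outside the other.

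Reads of called nucleosomes over a wider region, 2 kb before to 1 kb after the TSS, were compared between ctrl and N-myc kd with edgeR's quasi-likelihood test across all 20079 promoters. No promoter was called (0.0%) at a Benjamini-Hochberg adjusted p under 0.05, the smallest adjusted p was 0.999, and 634 promoters had an unadjusted p under 0.05. DESeq2 called none, with 209 under an unadjusted p of 0.05. Of the members, 17 NFR loss (3.83%) and 23 NFR formation promoters (4.76%) had an unadjusted p under 0.05, beside 3.16% of all promoters. The region holds the nucleosome on which members were chosen, and the log2 difference of N-myc kd from ctrl was above 0 at 60.6% of NFR loss and 37.3% of NFR formation promoters, with medians of 0.03 and -0.05. When nucleosomes filling the window were left out, these shares were 34.2% and 62.9%, but that step takes a nucleosome from the filled group only, so the selection builds the turn in. The promoter of DRP2, a dystrophin-related gene with NFR loss, had the lowest unadjusted p of that direction in edgeR (0.00461, adjusted p 0.999, log2 difference 0.71), and TMEM150A the lowest of NFR formation (0.0036, adjusted p 0.999, log2 difference -0.60). Among the 28 promoters that met the rule under the 4 further settings together the lowest unadjusted p in edgeR was 0.0745.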

How the data were processed

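MNase-seq of 4 BE(2)C libraries was analysed, 2 ctrl and 2 N-myc kd, grouped and numbered by the sample titles. Per the labels and the methods, the authors trimmed, mapped and de-duplicated the read pairs, took pair midpoints as dyads and called nucleosomes with Genetrack. The methods pool replicates for later steps, whereas the files used here hold 1 list for each library. The submitters' processing notes name CASAVA 1.9, Trim Galore 0.4.4, Bowtie2 2.2.4 and hg19. The deposited counts give the midpoints assigned to each called nucleosome as whole numbers, with a minimum of 6. The second deposited column is a fuzziness score, which the authors computed as the SD of midpoints in bp. A nucleosome that passes the minimum only in a deeper library fills a window there and not elsewhere, which bears on every state reported. Totals count reads in called nucleosomes and not sequenced reads.

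TSSs came from GENCODE on GRCh37. No nucleosome lay past the end of any of the 24 chromosomes. Of 20163 protein-coding promoters 84 were left out because at least 1 of the 4 libraries had no nucleosome within 1 kb. Where 2 nucleosomes filled a window, the one with more reads was used. Distances ran from the mean dyad of both filled libraries. Promoter reads were tested with edgeR 4.0.16 (R 4.3.3, TMM, mean of at least 10 reads, group only) and DESeq2 1.42.0, and the scripts were tested on simulated data first. P-values measure the spread between these samples, which may be technical.

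The members and lists were chosen with earlier results of these data known. Named in each direction were the 8 promoters with the highest lower read count of the filled libraries, the 8 highest among the far class, those closest to the limit, and up to 6 per family or list. Genes with clone names were counted and not named. Alternatives were the share inside, the read minimum, equal depth, the TSS, leaving out each library and the replicate block. Python 3.11.15, NumPy 2.4.6 and pandas 2.3.3 were used.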

Additional observations from a re-analysis of the deposited data

How the results depend on the processing

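The counts and medians were recomputed under each alternative, changing 1 choice at a time. With a nucleosome at least 50% inside, NFR loss numbered 283, and the median distance to the nearest nucleosome in the empty group was 130 bp for loss and 138.5 bp for formation. At 100% inside the distances were 90 and 90.5 bp. At a minimum of 10 reads they were 123.5 and 128.5 bp, and the median read count of NFR loss was 16. Those shifts follow from the construction, since the rule sets which positions and reads qualify. Leaving out each library in turn asks for 3 libraries only, and gave 878 to 1539 NFR loss and 1022 to 1536 NFR formation promoters, with median distances of 93.5 to 129.5 bp and 92.25 to 130.75 bp. The labels tie same-numbered libraries only by a number in the titles, but these libraries were also alike in depth. The correlation between their deviations from the group means was 0.286 over 20079 promoters. With the replicate block, the same-numbered libraries were compared 1 with 1, and the mean count was 2467 for NFR loss and 2604 for NFR formation. The replicate block in edgeR called 0 promoters, with 1177 at an unadjusted p under 0.05. Without N-myc kd replicate 2 edgeR called 1 promoter, lower in N-myc kd (adjusted p 0.00117), and it called 0 in the other alternatives. Leaving out members with a dyad within 20 bp of the limit, chosen after seeing the data, left 130 NFR loss and 133 NFR formation promoters. The limits 1 base looser and stricter, also chosen afterwards, gave 442 to 489 promoters. Each group has 2 libraries, and at a median of 12 to 18 reads per nucleosome a window near the minimum of 6 reads cannot be told empty from undersampled.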
